A study of Homo sapiens with 18 samples.

Results

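The unfolded protein response and the integrated stress response were followed through 33 genes, found by gene symbol in a table of 58735 genes. Of these, 20 serve the endoplasmic reticulum (ER) as chaperones, folding enzymes, degradation factors or stress sensors, and 13 belong to the arm governed by the transcription factor ATF4. Each symbol matched 1 row, and all 33 genes were among the 17409 that passed the filter on low counts. RNA was sequenced in 2 lines of human keratinocytes: HaCaT from skin, which became immortal spontaneously in culture, and TIGK from the gingiva, immortalised with telomerase. The 6 groups of 3 libraries were HaCaT cultures without a scratch (0 h) and at 6 h and 24 h after a scratch wound, and TIGK cultures at the same 3 times. No other agent or genetic change is given for any group. The study asked which differences in expression go with the better healing of oral keratinocytes, and it compared HaCaT with TIGK at each time and each line with its own 0 h. Each tissue is represented by 1 line, so tissue of origin cannot be told apart from the line. No unscratched culture of 6 h or 24 h is among these groups, so time after the scratch and time in culture cannot be told apart either.

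Proteins made for secretion or for membranes fold in the ER with the help of chaperones such as BiP (HSPA5) and GRP94 (HSP90B1), lectin chaperones such as calreticulin (CALR) and disulfide isomerases (the PDIA genes). When unfolded protein builds up, the sensors IRE1 (ERN1), ATF6 and PERK (EIF2AK3) raise transcription of these genes, IRE1 by splicing the mRNA of XBP1. PERK and its sister kinases also phosphorylate eIF2 alpha, which slows translation in general and favours translation of ATF4, a factor that raises genes of amino acid uptake and synthesis together with DDIT3 (CHOP), TRIB3 and PPP1R15A, whose product restores translation. Keratinocytes make large amounts of secreted matrix and membrane adhesion proteins, and ER stress is known to accompany their differentiation. Gene counts measure neither the splicing of XBP1 nor the phosphorylation of eIF2 alpha or the amount of ATF4 protein.

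Promoter sequence is shown for named elements of each arm, which only part of the genes hold. RefSeq promoter windows (GRCh38.p14) of 300 bases, from 250 before to 50 after the start, were available for 31 of the 33 genes, 19 of the ER and 12 of the ATF4 arm, with more than 1 start for 8 genes. The ER stress element ERSE (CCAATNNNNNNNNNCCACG, either strand) occurred in windows of 6 of the 19 ER genes and 0 of the 12 ATF4-arm genes, and in 0.0769% of 35116 promoters. Its matches, with the fixed letters in capitals and the spacer in lower case, were as follows.
HSPA5: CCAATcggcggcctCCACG
HSP90B1, farther match: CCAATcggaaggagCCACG
HSP90B1, nearer match: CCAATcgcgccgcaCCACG
XBP1: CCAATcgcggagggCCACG
CALR: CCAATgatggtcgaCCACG
PDIA6: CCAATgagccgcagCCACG
CRELD2: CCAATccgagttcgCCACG
Only 1 of the 35116 windows held 2 ERSE matches, that of HSP90B1. The related element ERSE-II (ATTGG and CCACG with 1 base between) occurred in 3 of the 19 ER genes (HERPUD1, SDF2L1 and HYOU1) and in 0.0541% of all windows. The UPRE (TGACGTGG) was found in HYOU1, where it overlaps an ERSE-II match, and in 0.729% of all windows. The core of the element read by ATF4 with its C/EBP partners, here called CARE (TGATGNAA), occurred in ASNS, CHAC1 and SLC3A2 among the 12 ATF4-arm genes, in HERPUD1 among the ER genes, and in 3.62% of all windows. These short letters are matches and no evidence of binding.

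The bases before the start are given for 3 ER genes that the results return to, as far as they lie outside the gene in the deposited annotation, with ERSE, ERSE-II and CARE letters in capitals. HERPUD1 is the ER gene that carries both kinds of element, a CARE core on the minus strand followed by ERSE-II.
HSPA5, chr9:125241344-125241543, minus strand: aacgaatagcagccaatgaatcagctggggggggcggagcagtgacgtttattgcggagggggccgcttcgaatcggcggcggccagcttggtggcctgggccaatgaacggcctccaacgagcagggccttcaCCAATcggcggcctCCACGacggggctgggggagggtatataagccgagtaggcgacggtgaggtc
XBP1, chr22:28800598-28800769, minus strand: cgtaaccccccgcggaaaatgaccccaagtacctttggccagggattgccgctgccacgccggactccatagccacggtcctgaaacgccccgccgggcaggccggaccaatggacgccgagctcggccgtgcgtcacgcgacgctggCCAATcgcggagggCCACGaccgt
HERPUD1, chr16:56931942-56932047, plus strand: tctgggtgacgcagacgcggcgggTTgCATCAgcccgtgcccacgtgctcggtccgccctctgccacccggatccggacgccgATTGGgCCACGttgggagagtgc

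**Figure D1:**
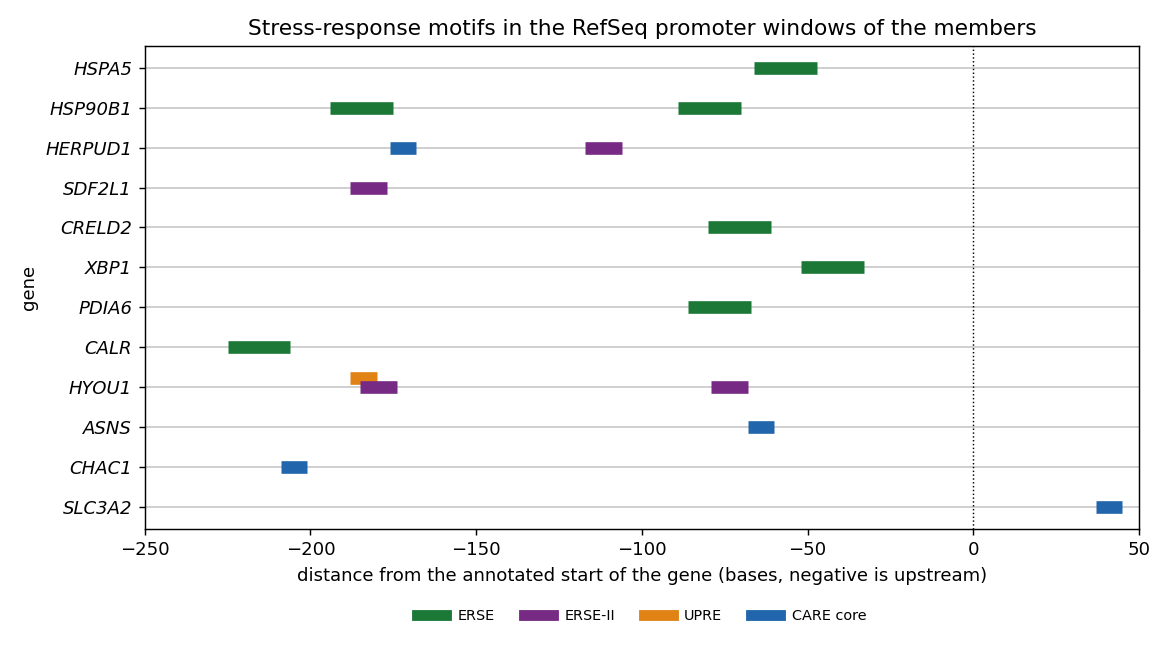
Position of each motif match (coloured bars) in the 300-base promoter windows of the 12 genes that hold one, as distance in bases from the annotated start, for ER genes above and ATF4-arm genes below. The ERSE matches lie upstream of the start in all 6 genes, and the SLC3A2 match lies after it.

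Libraries held 14238090 to 25011331 counted reads. The TIGK library C at 0 h and the one at 6 h stand apart: they listed 26246 and 25161 genes with a count, against 21164 to 22799 in the other 16 libraries, and had 5.08% and 4.98% of reads on mitochondrial genes, against 5.84% to 8.08%. For several results the fit without these 2 libraries is given beside the fit reported. TIGK C at 24 h also stands apart, by the chi-square of counts between 2 libraries of a group over its degrees of freedom. It gave 17.8 and 13.4 against A and B. TIGK C at 0 h and 6 h gave 15.6 to 17.8, and all other pairs gave 3.39 to 7.03. CPM below are counts per 1e6 reads, on library sizes scaled by TMM. Summed keratinocyte markers (9 of 9 tested, KRT5 and KRT14 among them) reached 45972 to 51381 CPM in HaCaT and 40167 to 50441 CPM in TIGK, where the libraries of 0 h were the lowest (up to 41965). Summed fibroblast markers (5 of 7 tested) were at 37.7 to 40.8 CPM at 24 h and 24.9 to 29.1 CPM at 0 h in HaCaT, and at 391 to 435 CPM at 24 h and 237 to 274 CPM at 0 h in TIGK. They differ with the line and with time as many of the genes below do, and their part in the results was not tested. Melanocyte, immune and endothelial marker sums stayed between 0.811 and 8.15 CPM in every library. In such bulk RNA, fewer cells that express a gene and less RNA per cell cannot be told apart. The labels do not say that replicates were separate cultures, so the p-values below describe only how far these libraries scatter, and that scatter could be technical.

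Levels of different genes were compared per length, as the authors' FPKM (fragments scaled to gene length and to depth) averaged over the 18 libraries. In the ER group CALR was highest (283 FPKM), followed by HSPA5 (216), HSP90B1 (133), PDIA4 (96.8) and PDIA3 (83.7). The lowest of that group were the sensors ERN1 (1.86 FPKM) and EIF2AK3 (3.73) with the cochaperone DNAJB9 (3.26), followed by EDEM1 (5.62) and the sensor ATF6 (5.82). The ATF4 arm was led by both chains of the large neutral amino acid transporter, SLC7A5 (879 FPKM) and SLC3A2 (235), with DDIT4, an inhibitor of mTORC1, between them (434). ATF4 itself stood at 80.2 FPKM, DDIT3 at 4.65, CHAC1 at 2.45 and VLDLR at 0.28. Asparagine synthetase (ASNS), a standard ATF4 target, was low in these lines at 0.206 FPKM, with 279 counts in all 18 libraries together.

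HaCaT and TIGK differed in the make-up of the ER group rather than in one direction. At 0 h, 5 of the 20 ER genes were higher in HaCaT and 5 lower, with a median log2 difference of 0.04, against −0.04 over all genes. Of all genes tested, 29.3% were called higher and 33.3% lower, so the ER counts stand no higher than those of the whole table. Adjusted p-values here and below are two-sided values from edgeR's quasi-likelihood test, adjusted by Benjamini-Hochberg over all 17409 genes, and a gene is called where this value is under 0.05. At 6 h the counts were 6 higher and 6 lower (all genes, 29.8% and 32.8%), and at 24 h they were 5 and 7 (all genes, 28.6% and 33.1%). At all 3 times 4 genes were higher in HaCaT (EDEM1, SDF2L1, ATF6 and DNAJB11) and 4 were lower (CALR, PDIA6, HERPUD1 and HYOU1). Where a gene was called between the lines, the 3 HaCaT and 3 TIGK libraries of that time did not overlap, except for ERN1 at 24 h. Those of CRELD2, ERN1, PDIA3 and PDIA4 at 0 h did not overlap either, though none of these was called. The share of all genes without overlap was not counted, so lack of overlap, here and below, is not read as a trait of these genes.

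CALR, the calcium-binding lectin chaperone, had the lowest adjusted p of the ER genes at each time. It had 371, 377 and 361 CPM at 0 h, 410.3, 394 and 407 at 6 h, and 479, 443 and 485 at 24 h in HaCaT. In TIGK it had 1059, 1147 and 1168 CPM at 0 h, 1084, 1139.5 and 1208 at 6 h, and 1161, 1088 and 1230.4 at 24 h. Every HaCaT library was below every TIGK library, 3.04-fold lower at 0 h (log2 −1.60 ± 0.07 SE, adjusted p = 6.4e-16), 2.83-fold lower at 6 h (adjusted p = 2.2e-15) and 2.47-fold lower at 24 h (adjusted p = 2.9e-14). PDIA6, a disulfide isomerase that also acts on the sensor IRE1, had 177, 170.1 and 172 CPM at 0 h, 173, 178 and 192 at 6 h, and 167, 155 and 169.7 at 24 h in HaCaT. TIGK had 292, 288 and 285 CPM at 0 h, 262, 289.7 and 283 at 6 h, and 264, 295 and 310.5 at 24 h. Its groups did not overlap either, and HaCaT was 1.67-fold, 1.54-fold and 1.77-fold lower at the 3 times, with adjusted p of 2.8e-09, 5.1e-08 and 4.6e-10.

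EDEM1, which hands misfolded glycoproteins over to degradation, went the other way. Its HaCaT libraries had 46.8, 40.1 and 53.8 CPM at 0 h, 45.1, 49.7 and 43.2 at 6 h, and 53.4, 66.9 and 55.6 at 24 h. Its TIGK libraries had 22.1, 20.7 and 25.3 CPM at 0 h, 25.3, 19.9 and 21.9 at 6 h, and 39.3, 35.4 and 27.4 at 24 h. HaCaT was 2.06-fold higher at 0 h (adjusted p = 2.4e-07), 2.06-fold higher at 6 h (adjusted p = 3e-07) and 1.72-fold higher at 24 h (adjusted p = 1.3e-05). The sensors split: ATF6 was 1.56-fold higher in HaCaT at 0 h (adjusted p = 1.8e-06), EIF2AK3 was 1.51-fold lower (adjusted p = 0.00038), and ERN1 was not called at 0 h (20.4 ± 0.635 CPM in HaCaT and 23.4 ± 0.735 in TIGK, mean ± SD of 3 libraries). The SDF2L1 cochaperone was 1.84-fold higher in HaCaT at 0 h (adjusted p = 1.1e-06). DNAJB11 was 1.21-fold higher (adjusted p = 0.035), and this call was lost without any of 4 single libraries at 0 h (adjusted p 0.063 to 0.15), of 2 at 6 h (0.082 and 0.09) and of 4 at 24 h (0.056 to 0.15).

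HSPA5, the master chaperone, was 1.303-fold higher in HaCaT at 0 h (adjusted p = 0.00016) and 1.34-fold higher at 6 h (adjusted p = 4.4e-05), and was not called at 24 h (1037, 929 and 1079 CPM in HaCaT and 955, 993 and 949.7 in TIGK, adjusted p = 0.45). PDIA4 and HSP90B1 were called at 24 h and not before: HaCaT was then 1.395-fold lower for PDIA4 (adjusted p = 4.1e-07) and 1.34-fold lower for HSP90B1 (adjusted p = 1.1e-05). HERPUD1, a membrane protein of ER-associated degradation, was lower in HaCaT at each time, 1.74-fold at 0 h, 2.29-fold at 6 h and 1.81-fold at 24 h (adjusted p = 5.3e-07, 7.5e-10 and 1.4e-07). In the fit reported CRELD2 was called at 24 h alone, 1.62-fold higher in HaCaT (adjusted p = 8e-06). DNAJB9 was called at 6 h alone, 1.497-fold lower in HaCaT (adjusted p = 0.0058). DNAJC3, MANF, XBP1 and SEL1L were called at none of the 3 times. MANF was 1.31-fold higher at 6 h (adjusted p = 0.072), and without the TIGK C libraries of 0 h and 6 h its log2 difference at 6 h was 0.66 (adjusted p = 0.0013).

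**Figure D2:**
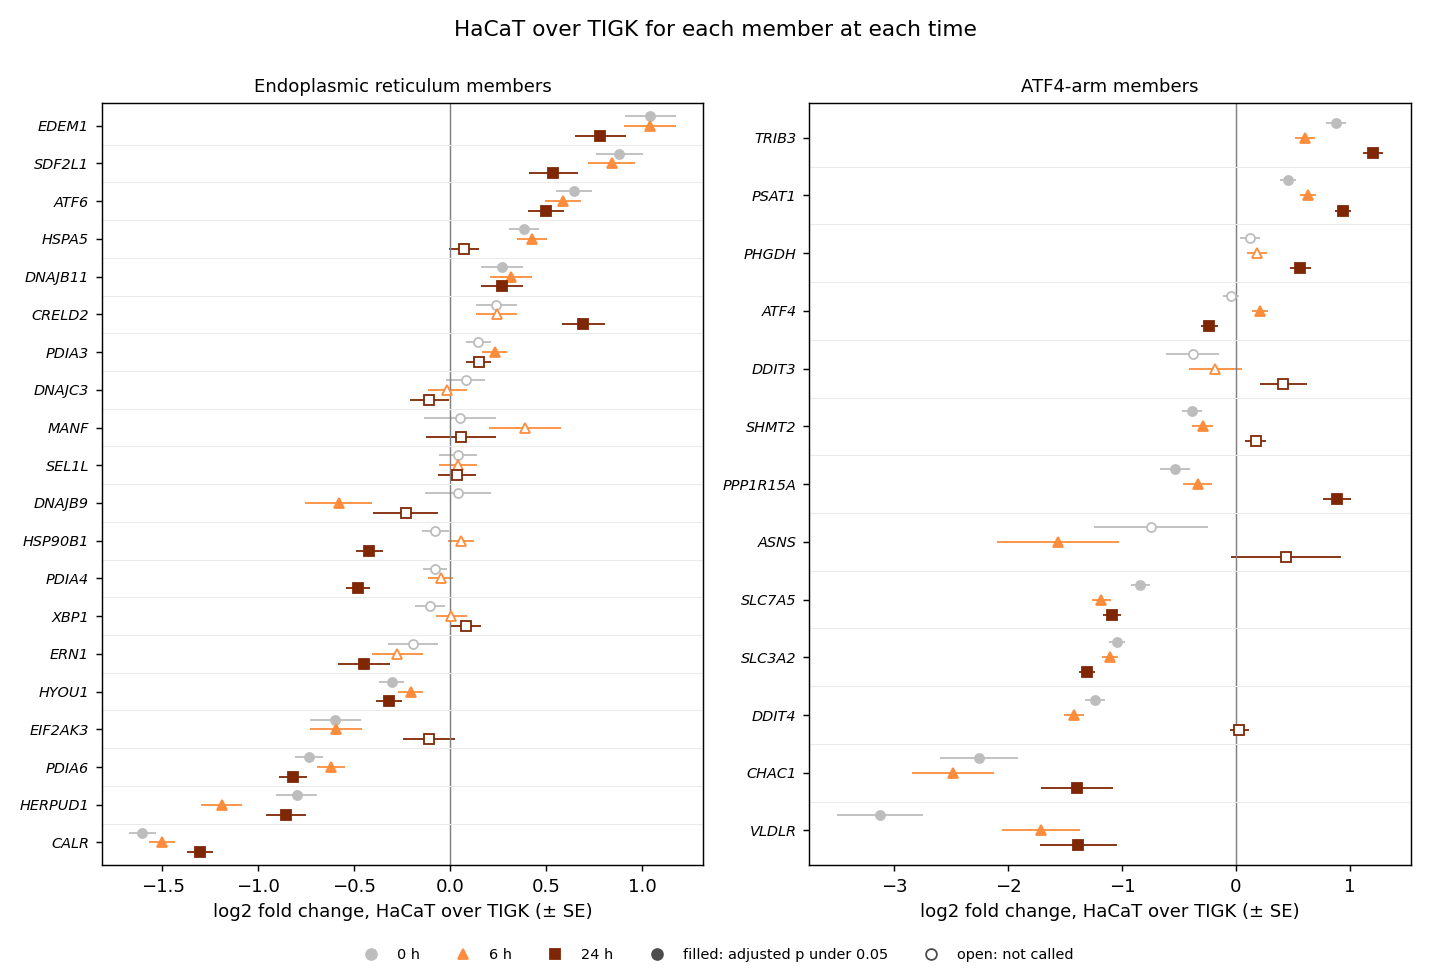
Log2 fold change of HaCaT over TIGK (x axis, ± SE) for each gene at 0 h, 6 h and 24 h, with ER genes on the left and ATF4-arm genes on the right. Filled symbols were called, open ones were not. CALR lies farthest below 0 among the ER genes, and PPP1R15A lies below 0 at 0 h and 6 h and above it at 24 h.

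In the ATF4 arm, more genes were lower than higher in HaCaT before the scratch. At 0 h 7 of the 13 were lower and 2 higher, with a median log2 difference of −0.53, beside 33.3% lower and 29.3% higher over all genes. At 6 h 8 were lower and 3 higher (median −0.34), beside 32.8% and 29.8% of all genes. At 24 h 5 were lower and 4 higher (median 0.17), shares near the 33.1% and 28.6% of all genes. The lower genes were led by the amino acid transporter. SLC3A2, its heavy chain, had 831, 840.4 and 802 CPM at 0 h, 818, 760.5 and 807 at 6 h, and 672, 686 and 669.9 at 24 h in HaCaT. TIGK had 1666, 1818 and 1623 CPM at 0 h, 1706, 1826 and 1607 at 6 h, and 1682, 1571 and 1765 at 24 h. The lines did not overlap, with HaCaT 2.06-fold lower at 0 h, 2.15-fold at 6 h and 2.48-fold at 24 h (adjusted p = 1.7e-12, 6e-13 and 2.8e-14). SLC7A5, its light chain, had 3216, 3010.3 and 3185 CPM at 0 h, 3007, 2848 and 2841 at 6 h, and 2176, 2516 and 2158 at 24 h in HaCaT. TIGK had 5432, 5821 and 5576 CPM at 0 h, 6788, 6996 and 5934 at 6 h, and 5425, 4804 and 4343 at 24 h. Again the lines did not overlap, and HaCaT was 1.79-fold, 2.27-fold and 2.13-fold lower (adjusted p = 2.3e-09, 5.1e-12 and 2.3e-11).

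CHAC1, which breaks down glutathione, was 4.78-fold lower in HaCaT at 0 h (adjusted p = 3.6e-06) and 2.63-fold lower at 24 h (adjusted p = 0.00053), with means of 1.65 ± 0.545 CPM in HaCaT and 7.89 ± 1.19 in TIGK at 0 h. VLDLR, a lipoprotein receptor, was 8.73-fold lower at 0 h (adjusted p = 1.1e-07), with 0.384, 0.619 and 0.561 CPM in HaCaT and 5.47, 4.04 and 4.39 in TIGK. Higher in HaCaT at all 3 times were PSAT1, an enzyme of serine synthesis, and TRIB3, a pseudokinase that damps ATF4. TRIB3 had 122, 116 and 102 CPM at 0 h, 99.1, 93.9 and 92.8 at 6 h, and 139, 126 and 132 at 24 h in HaCaT. In TIGK it had 59.8, 70.04 and 55.2 CPM at 0 h, 62.9, 62.3 and 62.4 at 6 h, and 59, 54.2 and 58.8 at 24 h. All HaCaT libraries lie above all TIGK libraries, with HaCaT 1.84-fold, 1.52-fold and 2.31-fold higher (adjusted p = 3e-09, 1.4e-06 and 1.3e-11). PSAT1 was 1.37-fold higher at 0 h and 1.92-fold higher at 24 h (adjusted p = 4.3e-06 and 3e-11).

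PPP1R15A changed side: HaCaT was 1.45-fold lower at 0 h (adjusted p = 0.0011) and 1.85-fold higher at 24 h (adjusted p = 1.1e-06). The calls of PPP1R15A, SHMT2 and ASNS at 6 h (adjusted p = 0.027, 0.0066 and 0.014) were lost without the TIGK C libraries of 0 h and 6 h, at adjusted p of 0.15, 0.056 and 0.059. Without the same libraries PHGDH was called higher in HaCaT at 6 h (log2 0.23, adjusted p = 0.034). ATF4 itself was not called at 0 h (log2 −0.04 ± 0.07 SE), 1.16-fold higher in HaCaT at 6 h (adjusted p = 0.014) and 1.18-fold lower at 24 h (adjusted p = 0.0069). The 6 h call of ATF4 was lost without HaCaT 6 h A (0.069) or TIGK 6 h C (0.052), and the 24 h call without TIGK 24 h C (0.056). DDIT3 was called at no time in the fit reported, at 3.204, 3.16 and 3.37 CPM in HaCaT and 3.93, 3.29 and 5.295 in TIGK at 0 h. At 24 h its HaCaT libraries lay above those of TIGK (adjusted p = 0.087). DDIT3 was called higher there with only the groups compared (0.043) and without all 3 TIGK C libraries (0.023). Limma on log2(FPKM + 1) (0.047) and a fit without TIGK 24 h C (0.032) called it too.

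At 6 h after the scratch no gene of either arm was called in either line in the fit reported. Of all genes tested, 0.138% were called higher and 0.0632% lower in HaCaT, and 2.5% and 1.12% in TIGK. In HaCaT 0 of the 20 ER genes and 3 of the 13 ATF4-arm genes (TRIB3, VLDLR and PPP1R15A) had an unadjusted p under 0.05. In TIGK 1 ER gene (HERPUD1) and 4 ATF4-arm genes (ATF4, PSAT1, SLC7A5 and PPP1R15A) had one. Of all 17409 genes tested, 1315 had an unadjusted p under 0.05 in HaCaT and 2499 in TIGK. DESeq2 called 0 of the 33 genes in HaCaT and 1 in TIGK, PSAT1, at log2 −0.22 (adjusted p = 0.034). The line difference of the 6 h response was called for 0 of the 33 genes by edgeR and 0 by DESeq2. Over all genes 0.218% were called higher and 0.534% lower. Its unadjusted p was under 0.05 for 2 ER and 4 ATF4-arm genes, and for 1814 of all 17409 genes. HERPUD1 stood at 84.4 ± 12.9 CPM at 6 h and 70.2 ± 5.199 CPM at 0 h in TIGK, and it was called without TIGK 6 h C (log2 0.38, adjusted p = 0.025). The lowest adjusted p at 6 h was that of PSAT1 in TIGK (0.085). In HaCaT it was that of PPP1R15A (0.18), at 27.5 ± 3.86 CPM at 6 h and 19.8 ± 2.43 CPM at 0 h, where all 3 libraries of 6 h were above those of 0 h. PPP1R15A was called there with no filter on low counts (log2 0.48, adjusted p = 0.021) and without all 3 TIGK C libraries (0.039). Without the TIGK C libraries of 0 h and 6 h, SLC7A5 was called in TIGK at 6 h (log2 0.29, adjusted p = 0.045).

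At 24 h more ER genes rose than fell in both lines. In HaCaT 5 of the 20 rose and 2 fell against 0 h, with a median log2 change of 0.16. In TIGK 8 rose and 1 fell, with a median of 0.20, and HSPA5, HSP90B1 and PDIA4 rose there by 1.41- to 1.48-fold. CALR, the ER gene of highest FPKM, and PDIA3 were called in TIGK in neither direction. Of all genes, 15.5% rose and 15.9% fell in HaCaT, and 15.3% rose and 17% fell in TIGK, with medians of 0.00 and −0.01. The 20 ER genes together summed to 3398 ± 87.3 at 0 h, 3592 ± 56.7 at 6 h and 3792 ± 166 CPM at 24 h in HaCaT (SD, n = 3). In TIGK they summed to 4092 ± 61.0, 4135 ± 85.6 and 4896 ± 101 CPM at the same times.

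PDIA4, a disulfide isomerase, had the lowest adjusted p of the ER genes in TIGK. Its HaCaT libraries had 284, 289.8 and 272 CPM at 0 h, 289, 283 and 299.7 at 6 h, and 312, 306 and 329 at 24 h. Its TIGK libraries had 299, 301 and 294 CPM at 0 h, 309, 309 and 284 at 6 h, and 445, 428 and 449 at 24 h. The 3 TIGK libraries of 24 h lie above all 15 others. At 24 h against 0 h, HaCaT gave log2 0.16 ± 0.06 (SE, adjusted p = 0.053), and PDIA4 rose 1.48-fold in TIGK (log2 0.56 ± 0.06 SE, adjusted p = 2.1e-07). The response differed between the lines by log2 −0.40 ± 0.09 (SE, HaCaT minus TIGK, adjusted p = 0.003), and this call held in every alternative tried.

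HSP90B1, the ER form of HSP90, had 543, 592 and 545 CPM at 0 h, 605, 607 and 613 at 6 h, and 652, 566 and 648 at 24 h in HaCaT. TIGK had 607, 575 and 591 CPM at 0 h, 567, 591 and 597 at 6 h, and 769.9, 858 and 874 at 24 h. Its 3 TIGK libraries of 24 h are likewise above all others. It was not called in HaCaT (log2 0.15 ± 0.07 SE, adjusted p = 0.1) and rose 1.41-fold in TIGK (adjusted p = 5.1e-06). The difference between the responses was log2 −0.34 ± 0.10 (SE, adjusted p = 0.02) and was not called without HaCaT 0 h B (0.065) or HaCaT 24 h B (0.07). With no filter on low counts that call was lost too. HSPA5 had 874, 915 and 829.6 CPM at 0 h, 936, 897 and 946 at 6 h, and 1037, 929 and 1079 at 24 h in HaCaT. TIGK had 677, 703 and 630.3 CPM at 0 h, 706, 758 and 604 at 6 h, and 955, 993 and 949.7 at 24 h. HaCaT was higher than TIGK at 0 h and 6 h and overlapped with it at 24 h. HSPA5 rose 1.16-fold in HaCaT (adjusted p = 0.036) and 1.44-fold in TIGK (adjusted p = 1.1e-05). The HaCaT call was lost without 1 library in 5 cases (HaCaT 0 h A or C, 6 h A, 24 h A or C; adjusted p 0.051 to 0.17), and the difference between the responses missed the threshold (log2 −0.31 ± 0.11 SE, adjusted p = 0.063; 0.049 without the TIGK C libraries of 0 h and 6 h, and 0.026 without all 3).

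HERPUD1 rose in both lines. It had 39.3, 47.2 and 34.3 CPM at 0 h, 35.2, 37.3 and 38.2 at 6 h, and 62.2, 60.4 and 64.5 at 24 h in HaCaT. TIGK had 74.98, 71.1 and 64.7 CPM at 0 h, 87.8, 95.3 and 70.2 at 6 h, and 114, 109.6 and 116 at 24 h. All libraries of 24 h are above those of 0 h in both lines. The rise was 1.55-fold in HaCaT (adjusted p = 6.4e-05) and 1.61-fold in TIGK (adjusted p = 1.4e-05), and the difference between them was log2 −0.06 ± 0.15 (SE, adjusted p = 0.87). HERPUD1 was the most risen ER gene in each line by fold among those called. SEL1L, the scaffold of the HRD1 degradation complex, rose 1.21-fold in HaCaT (adjusted p = 0.033) and 1.22-fold in TIGK (adjusted p = 0.027), calls that were lost without HaCaT 0 h A, B or C or 24 h A or B in HaCaT (0.051 to 0.23) and without TIGK 0 h B or 24 h A or B in TIGK (0.067 to 0.17).

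XBP1, the target of IRE1, had 75.9, 77.6 and 71.5 CPM at 0 h, 82.6, 80.1 and 80.1 at 6 h, and 95.8, 92.5 and 102 at 24 h in HaCaT. In TIGK it had 79.8, 87.3 and 75.2 CPM at 0 h, 81.3, 87.6 and 72.9 at 6 h, and 95.02, 89.2 and 89.7 at 24 h. The HaCaT libraries of 24 h lie above those of 0 h and 6 h. XBP1 rose 1.29-fold in HaCaT (adjusted p = 0.00085) and was not called in TIGK (log2 0.18 ± 0.08 SE, adjusted p = 0.088), with a difference of log2 0.19 ± 0.11 (SE) that was not called (adjusted p = 0.3). CALR rose 1.27-fold in HaCaT (adjusted p = 0.00034) and was not called in TIGK (log2 0.04 ± 0.07 SE, adjusted p = 0.66). The difference for CALR, log2 0.30 ± 0.10 (SE, adjusted p = 0.039), ran opposite to that of PDIA4 and HSP90B1. It was not called when any of 12 single libraries was left out (adjusted p 0.053 to 0.11), nor in a fit of only the groups compared (0.068).

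Among the other ER genes, EDEM1 rose 1.496-fold, DNAJB9 1.52-fold and DNAJC3, the inhibitor of PERK, 1.27-fold in TIGK at 24 h (adjusted p = 0.0016, 0.0081 and 0.011). None of the 3 was called in HaCaT in the fit reported, where EDEM1 gave log2 0.32 ± 0.13 (SE, adjusted p = 0.06). EDEM1 was called there by DESeq2 (0.042), with RLE scaling (0.047) and with no filter on low counts (0.036). None of the 3 had a called difference between the responses of the lines. The TIGK call of DNAJB9 was lost without all 3 TIGK C libraries (0.096), and that of DNAJC3 without TIGK 24 h B (0.055). CRELD2, a secreted ER stress protein, fell 1.41-fold in TIGK (adjusted p = 0.0012) and gave log2 −0.04 ± 0.11 (SE) in HaCaT. The difference for CRELD2 was log2 0.45 ± 0.16 (SE, adjusted p = 0.054; 0.028 by DESeq2). SDF2L1 fell 1.32-fold in HaCaT (adjusted p = 0.014) and the sensor ERN1 fell 1.301-fold (adjusted p = 0.034). Both of these calls were lost when single libraries were left out: SDF2L1 was lost without HaCaT 0 h A or B or 24 h C (0.053 to 0.074), and ERN1 without any of HaCaT 0 h A, B and C and 24 h B and C (0.054 to 0.17). ERN1 was also lost by limma on log2(FPKM + 1) (0.083). DNAJB11, PDIA3, PDIA6, HYOU1, MANF, ATF6 and EIF2AK3 were called at 24 h in neither line in the fit reported. For the 20 ER genes as a whole, leaving out HaCaT 0 h A, HaCaT 0 h B or HaCaT 24 h C brought the HaCaT count of 7 called genes down to 3, 4 and 4. A fit of only the HaCaT 24 h and 0 h groups raised it to 11, adding HSP90B1, MANF, PDIA4 and EDEM1, and so did a fit without the 3 TIGK C libraries. Calls over all genes moved too: 5471 in the fit reported, 4575 to 5713 without 1 library and 5164 to 6360 in the other alternatives. PDIA4 was also called in HaCaT by DESeq2 (adjusted p = 0.0053), with RLE scaling (0.028) and by limma on log2(FPKM + 1) (0.0089). The difference between the responses was called for 3 ER genes, for 6 without the TIGK C libraries of 0 h and 6 h, and for 5 without all 3 of that letter. Over all genes it was called for 2354, and for 2215 to 2750 in the alternatives other than leaving out 1 library.

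Of the 3 sensors, none was called higher at 24 h in either line in the fit reported, and ERN1 fell in HaCaT as given above. ATF6, which is cut in the Golgi to release a transcription factor, had 53.6, 54.9 and 59.2 CPM at 0 h, 52.7, 51.5 and 52 at 6 h, and 58.8, 56.5 and 61.3 at 24 h in HaCaT. TIGK had 37.98, 33.7 and 35.5 CPM at 0 h, 31.1, 39.9 and 33.03 at 6 h, and 44.99, 38.2 and 41.99 at 24 h. The lines did not overlap at any time, and ATF6 was called in neither line at 24 h (log2 0.08 ± 0.09 SE in HaCaT and 0.22 ± 0.09 (SE) in TIGK). In TIGK its libraries of 24 h lie above those of 0 h, and ATF6 was called without TIGK 24 h B (log2 0.28, adjusted p = 0.043). EIF2AK3 (PERK) had 18.1, 16.5 and 16.7 CPM at 0 h, 13.7, 15.2 and 18.1 at 6 h, and 21.5, 19.98 and 17.3 at 24 h in HaCaT. TIGK had 25.6, 29.2 and 23.1 CPM at 0 h, 26.7, 23.8 and 20.5 at 6 h, and 21.7, 23.1 and 18.7 at 24 h. Its difference at 24 h was not called (adjusted p = 0.49), nor was that of its responses (log2 0.49 ± 0.19 SE, adjusted p = 0.092; 0.047 without the TIGK C libraries of 0 h and 6 h). Without the same libraries, EIF2AK3 was called lower at 24 h than at 0 h in TIGK (log2 −0.37, adjusted p = 0.043). ERN1 (IRE1) had 21.02, 19.7 and 20.5 CPM at 0 h, 17.97, 21.4 and 18.02 at 6 h, and 17.6, 13.4 and 15.98 at 24 h in HaCaT. TIGK had 22.9, 24.2 and 23 CPM at 0 h, 22.3, 24.9 and 22.3 at 6 h, and 24.6, 22.9 and 16.6 at 24 h. At 24 h ERN1 was 1.36-fold lower in HaCaT than in TIGK (adjusted p = 0.0059), although the libraries overlapped.

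MANF, a secreted ER stress factor, had its highest TIGK value in library C at all 3 times. Its HaCaT libraries had 15.2, 20.2 and 16.6 CPM at 0 h, 22.4, 21.02 and 20.8 at 6 h, and 22.9, 20.5 and 26.9 at 24 h. Its TIGK libraries had 14.9, 13.96 and 21.1 CPM at 0 h, 12.7, 14.5 and 21.7 at 6 h, and 19.3, 20.4 and 28.04 at 24 h. The lines overlap at each time, at 6 h through TIGK C alone. MANF gave log2 0.43 ± 0.19 (SE) in HaCaT (adjusted p = 0.08) and 0.43 ± 0.18 (SE) in TIGK (adjusted p = 0.08) at 24 h. Without the TIGK C libraries of 0 h and 6 h it was called in both lines (log2 0.43, adjusted p = 0.022 in HaCaT, and log2 0.64, adjusted p = 0.0034 in TIGK), as it was with no filter on low counts (0.023 and 0.047). SDF2L1 had 53.9, 54.4 and 47.1 CPM at 0 h, 57.7, 50.6 and 55.2 at 6 h, and 41.5, 40.03 and 36.1 at 24 h in HaCaT. TIGK had 21.9, 28.1 and 33.8 CPM at 0 h, 31.4, 26.2 and 33.5 at 6 h, and 24.9, 26.8 and 29.3 at 24 h. HaCaT was above TIGK in all libraries of each time, and here too library C is the highest of TIGK at each time. The difference of the SDF2L1 responses at 24 h was called without the TIGK C libraries of 0 h and 6 h (log2 −0.51, adjusted p = 0.035). PDIA3, the isomerase that works with CALR, had 376 ± 12.2 CPM in HaCaT and 339 ± 16.3 CPM in TIGK at 24 h, and HYOU1, a large chaperone related to HSP70, had 222 ± 4.82 CPM in HaCaT and 277 ± 15.3 CPM in TIGK. PDIA3 was called higher in HaCaT at 6 h in the fit reported (1.17-fold, adjusted p = 0.0033). Without the TIGK C libraries of 0 h and 6 h, PDIA3 was called higher in HaCaT at 0 h and 24 h too (adjusted p = 0.023 and 0.032). HYOU1 was 1.24-fold lower in HaCaT at 0 h and 1.25-fold lower at 24 h (adjusted p = 3e-04 and 2e-04).

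**Figure D3:**
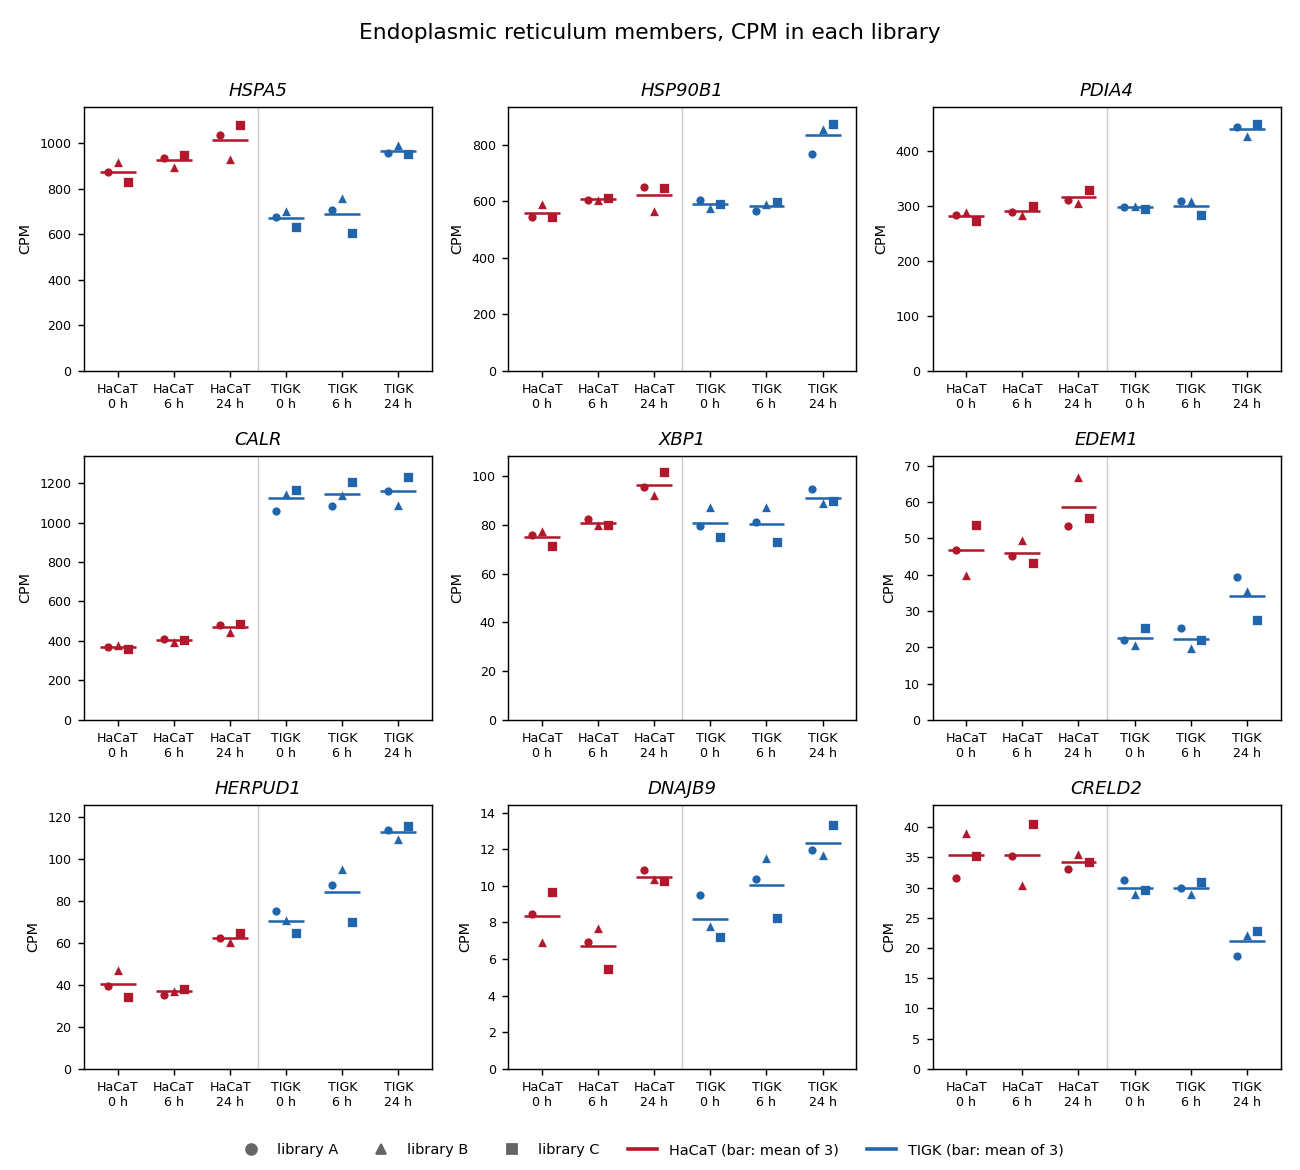
CPM of 9 ER genes in each of the 18 libraries (symbols A, B and C) with the group mean as a bar, HaCaT on the left and TIGK on the right of each panel, all axes from 0. HSP90B1 and PDIA4 rise in the 3 TIGK libraries of 24 h, and CALR separates the lines at every time.

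The ATF4 arm changed in more genes in HaCaT than in TIGK. At 24 h 9 of its 13 genes rose and 2 fell in HaCaT, with a median log2 change of 0.34, beside 15.5% and 15.9% of all genes. In TIGK 4 rose and 1 fell, with a median of −0.03, beside 15.3% and 17%. The response was called higher in HaCaT than in TIGK for 6 of the 13 (PPP1R15A, DDIT4, PSAT1, SHMT2, PHGDH and VLDLR) and lower for 0, and for the 20 ER genes it was called higher for 1 and lower for 2. Over all genes 7.07% were called higher and 6.45% lower. Both lines share the 4 risen genes DDIT3, PPP1R15A, DDIT4 and ATF4. Without HaCaT 24 h C the HaCaT count of 11 called genes was 7. Over all genes, fits without 1 library called 4575 to 5713, against 5471 in the fit reported.

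PPP1R15A (GADD34), the phosphatase subunit that reverses eIF2 alpha phosphorylation, had 17.3, 19.9 and 22.1 CPM at 0 h, 30.8, 23.3 and 28.6 at 6 h, and 71.9, 76.2 and 79.98 at 24 h in HaCaT. TIGK had 22.98, 31.4 and 31.2 CPM at 0 h, 31.9, 32.6 and 39.6 at 6 h, and 41.1, 45.1 and 37 at 24 h. The 3 HaCaT libraries of 24 h are above all 15 others. It rose 3.84-fold in HaCaT (log2 1.94 ± 0.13 SE, adjusted p = 3.9e-11) and 1.44-fold in TIGK (log2 0.52 ± 0.13 SE, adjusted p = 0.0025). The HaCaT response was larger by log2 1.42 ± 0.18 (SE, adjusted p = 5.6e-06).

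DDIT4 (REDD1), which restrains mTORC1, had 451, 443 and 409 CPM at 0 h, 392, 372 and 391 at 6 h, and 1313, 1174 and 1374 at 24 h in HaCaT. TIGK had 1099, 1067 and 908 CPM at 0 h, 1086, 1098 and 903 at 6 h, and 1188, 1254 and 1338 at 24 h. HaCaT was below TIGK at 0 h and 6 h, 2.36-fold (adjusted p = 6e-12) and 2.67-fold (adjusted p = 5.1e-13), and at 24 h the lines overlapped (adjusted p = 0.77). The rise was 2.96-fold in HaCaT (adjusted p = 1.2e-12) and 1.23-fold in TIGK (adjusted p = 0.0085), a difference of log2 1.27 ± 0.12 (SE, adjusted p = 6.6e-08). The TIGK call was lost without TIGK 0 h C (0.062) and without all 3 TIGK C libraries (0.053).

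DDIT3 (CHOP), the factor tied to death under ER stress, was low and rose in both lines. It had 3.204, 3.16 and 3.37 CPM at 0 h, 5.46, 2.99 and 3.77 at 6 h, and 11.2, 11.5 and 12.9 at 24 h in HaCaT. TIGK had 3.93, 3.29 and 5.295 CPM at 0 h, 4.33, 4.14 and 5.35 at 6 h, and 7.203, 8.56 and 10.9 at 24 h. The rise was 3.65-fold in HaCaT (adjusted p = 6e-07) and 2.1-fold in TIGK (adjusted p = 0.00049), and all libraries of 24 h lie above those of 0 h. The difference, log2 0.80 ± 0.31 (SE), was not called (adjusted p = 0.098). DDIT3 shares 27.2% of its exon bases with MARS on the opposite strand, which had 47423 counts against 1784 for DDIT3, and the use of strand in counting is not stated, so reads of the pair cannot be told apart.

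ATF4 mRNA had 194, 187 and 187 CPM at 0 h, 205, 186 and 200.3 at 6 h, and 223, 205 and 226 at 24 h in HaCaT. In TIGK it had 205, 187 and 192 CPM at 0 h, 177, 170.2 and 164 at 6 h, and 244, 247 and 279 at 24 h. The 3 TIGK libraries of 24 h are above all others. ATF4 rose 1.15-fold in HaCaT (adjusted p = 0.03; lost without HaCaT 0 h A, B or C or 24 h A or C, 0.057 to 0.12) and 1.32-fold in TIGK (adjusted p = 0.00012). The HaCaT call was also lost with no filter on low counts (0.099). The difference between the lines, log2 −0.19 ± 0.10 (SE), was not called (adjusted p = 0.24) and its sign is opposite to that of PPP1R15A and DDIT4. Its protein is set largely by translation, which these counts do not measure.

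The serine and one-carbon enzymes PSAT1, PHGDH and SHMT2 each responded differently in the lines. PSAT1 had 169, 182 and 154 CPM at 0 h, 163, 160.3 and 166 at 6 h, and 218, 201 and 219 at 24 h in HaCaT. TIGK had 123, 127 and 119 CPM at 0 h, 104, 104 and 107 at 6 h, and 105, 115 and 113 at 24 h. Every HaCaT library was above every TIGK library. PSAT1 rose 1.26-fold in HaCaT (adjusted p = 0.00057) and was not called in TIGK (log2 −0.15 ± 0.07 SE), a difference of log2 0.48 ± 0.10 (SE, adjusted p = 0.0016). PHGDH, the first enzyme of serine synthesis, rose 1.21-fold in HaCaT (adjusted p = 0.019; lost without HaCaT 0 h C or 24 h A or C, 0.079 to 0.11) and gave log2 −0.17 ± 0.09 (SE) in TIGK (adjusted p = 0.16). Its difference of log2 0.44 ± 0.12 (SE, adjusted p = 0.018) was lost without any of HaCaT 0 h C, 24 h A and 24 h C and TIGK 0 h B and 24 h A (0.051 to 0.065). SHMT2, which passes a carbon from serine to folate in mitochondria, had 149, 164 and 149.6 CPM at 0 h, 184, 146 and 176 at 6 h, and 167, 161 and 173 at 24 h in HaCaT. TIGK had 187, 202 and 214 CPM at 0 h, 189, 195 and 235 at 6 h, and 141, 148 and 156 at 24 h. The TIGK libraries of 24 h lie below those of 0 h and 6 h, and those of HaCaT overlap. SHMT2 was not called in HaCaT (log2 0.12 ± 0.09 SE) and fell 1.36-fold in TIGK (adjusted p = 0.00047), a difference of log2 0.56 ± 0.13 (SE, adjusted p = 0.0038).

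Both chains of the transporter fell in HaCaT, SLC7A5 by 1.37-fold (adjusted p = 8.9e-05) and SLC3A2 by 1.22-fold (adjusted p = 0.0019). Neither was called in TIGK (adjusted p = 0.051 and 0.82), where SLC7A5 narrowly missed the threshold at log2 −0.21 ± 0.08 (SE). SLC7A5 was called lower in TIGK too with no filter on low counts (0.002), without the TIGK C libraries of 0 h and 6 h (0.029), and without any of HaCaT 24 h B, TIGK 6 h C and TIGK 24 h A (0.0085 to 0.039). In the fit of all libraries neither difference between the lines was called (adjusted p = 0.16 and 0.072), and that of SLC7A5 was without all 3 TIGK C libraries (log2 −0.32, adjusted p = 0.0084). TRIB3 rose 1.17-fold in HaCaT (adjusted p = 0.048), a call lost in 14 of 18 fits without 1 library (adjusted p 0.051 to 0.29) and with no filter on low counts (0.11). The difference in its response was not called (log2 0.33 ± 0.12 SE, adjusted p = 0.079), and it was without the TIGK C libraries of 0 h and 6 h (0.024). CHAC1 rose 2.13-fold in HaCaT (adjusted p = 0.024), with 1.91, 3.48 and 5.22 CPM at 24 h and 1.03, 2.04 and 1.87 at 0 h, where the groups overlap. Its call was lost without HaCaT 0 h A (0.12) or 24 h C (0.2), and by limma on log2(FPKM + 1) (0.052). VLDLR rose 2.78-fold in HaCaT (adjusted p = 0.0083) at low counts, to 1.47 ± 0.322 CPM at 24 h, against 0.522 ± 0.122 at 0 h. This call was lost by limma on log2(FPKM + 1) (0.15). The VLDLR difference from TIGK, log2 1.74 ± 0.52 (SE, adjusted p = 0.025), was lost without HaCaT 0 h A or 24 h C or TIGK 0 h A or 24 h C (0.053 to 0.076). It was also lost without all 3 TIGK C libraries (0.055) and by limma (0.14). ASNS was not called in either line, at 1.38 ± 0.0495 CPM at 24 h and 0.61 ± 0.266 at 0 h in HaCaT (adjusted p = 0.082) and at 1.02 ± 0.0514 and 1.01 ± 0.362 CPM in TIGK (adjusted p = 0.99). It shares 44.6% of its exon bases with a transcript on the same strand.

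**Figure D4:**
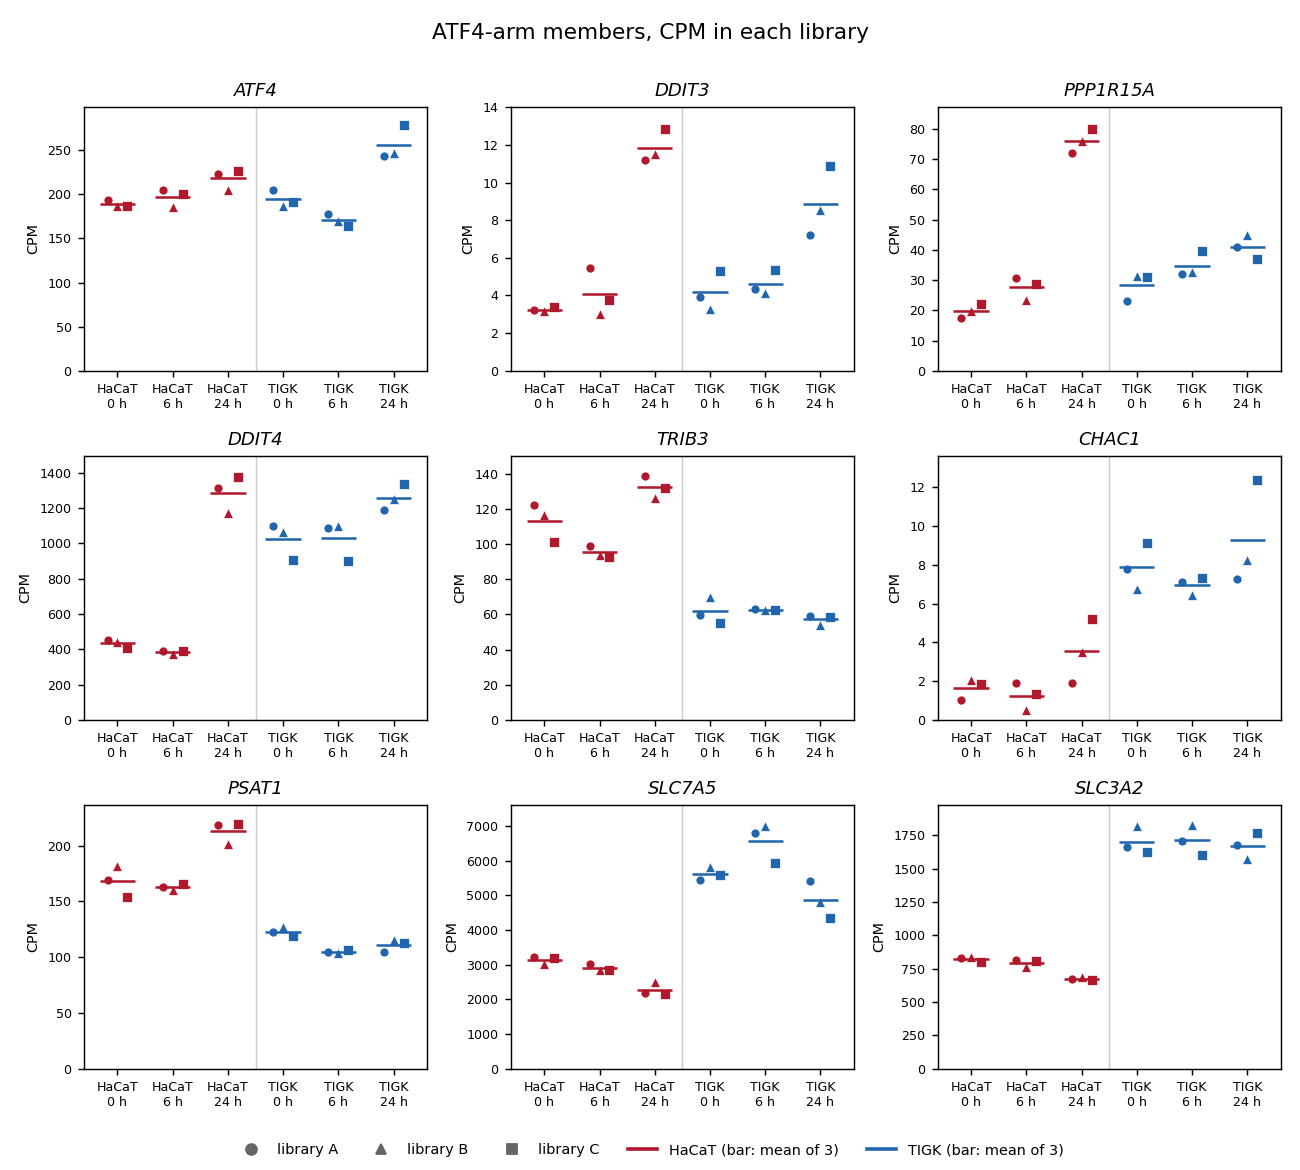
CPM of 9 ATF4-arm genes in each of the 18 libraries (symbols A, B and C) with the group mean as a bar, HaCaT on the left and TIGK on the right of each panel, all axes from 0. PPP1R15A and DDIT4 rise at 24 h by 3.84-fold and 2.96-fold in HaCaT and by 1.44-fold and 1.23-fold in TIGK.

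**Figure D5:**
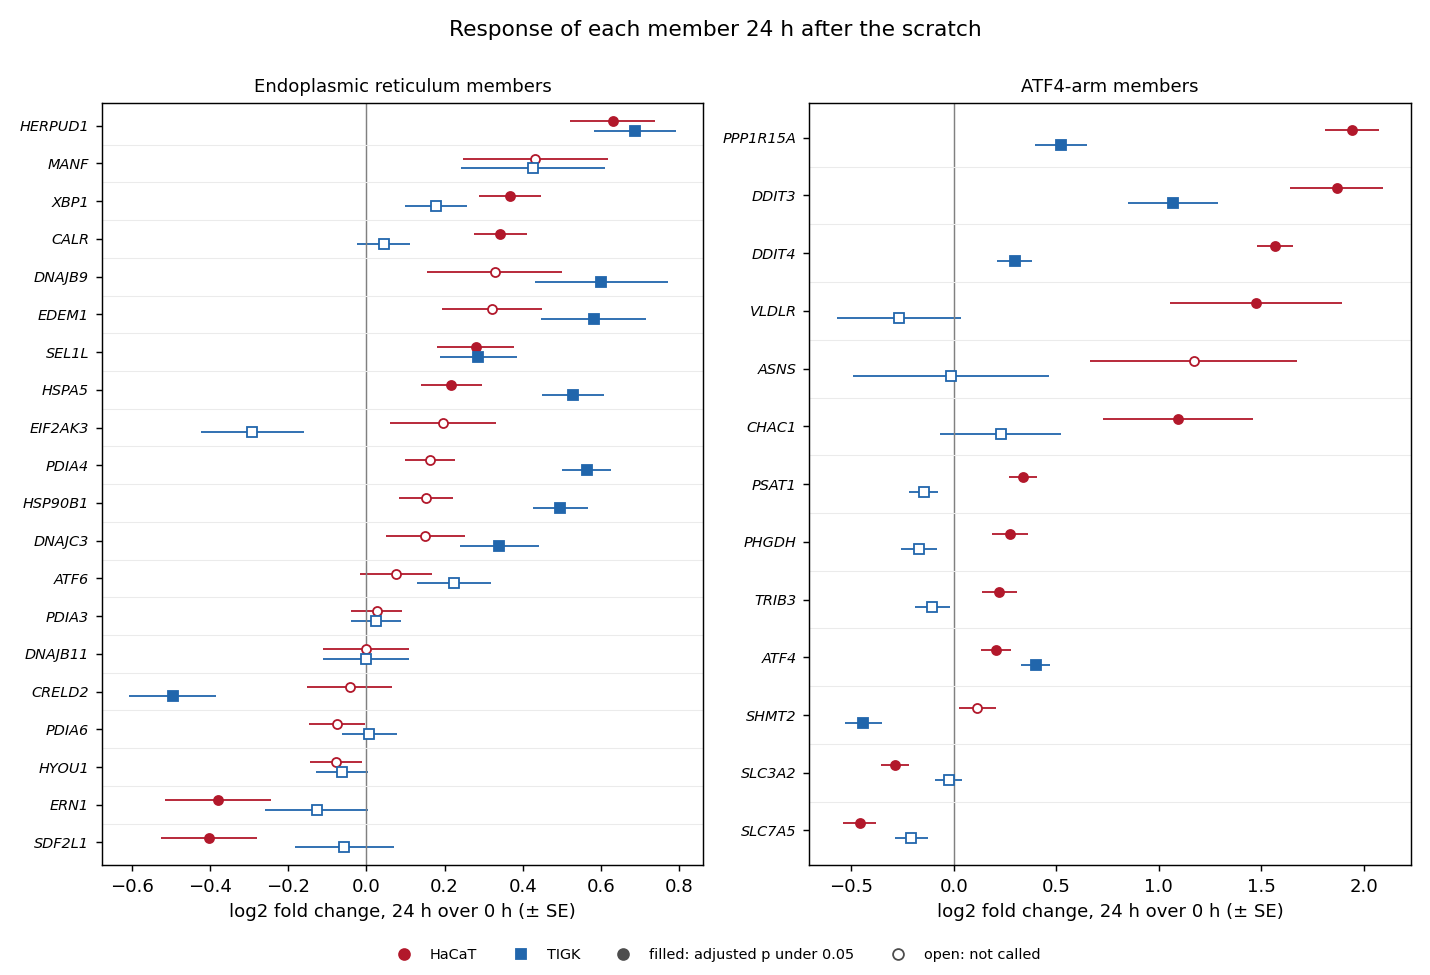
Log2 fold change from 24 h over 0 h (x axis, ± SE) for each gene in HaCaT (circles) and TIGK (squares), with ER genes on the left and ATF4-arm genes on the right. Filled symbols were called. HSPA5, PDIA4 and HSP90B1 lie further right in TIGK, PPP1R15A and DDIT4 further right in HaCaT, and HERPUD1 is close to equal.

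Further genes of the same pathways, from lists that do not overlap the 33, were counted for context. Over all genes 15.5% rose and 15.9% fell in HaCaT at 24 h, and 15.3% rose and 17% fell in TIGK, the shares beside which each list is read. Of 20 other ER folding genes, 1 rose and 3 fell in HaCaT at 24 h, and 0 rose and 5 fell in TIGK, so the fallen share in HaCaT is near that of all genes. ERO1A, the oxidase that recharges the disulfide isomerases, rose 1.54-fold in HaCaT (152 ± 7.15 CPM at 24 h and 99.1 ± 5.68 at 0 h, adjusted p = 8e-07) and fell 1.29-fold in TIGK (62.6 ± 5.71 CPM at 24 h and 80.7 ± 3.62 at 0 h, adjusted p = 0.00077). Its difference was log2 0.99 ± 0.11 (SE, adjusted p = 6.8e-07). PDIA5 fell 1.46-fold in HaCaT and 1.38-fold in TIGK (adjusted p = 0.003 and 0.0055). The prolyl isomerase FKBP14 was 2.34-fold higher in HaCaT than in TIGK at 0 h (adjusted p = 3.3e-10), and FKBP11 was 1.99-fold lower (adjusted p = 2.1e-07).

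Of 15 further genes of ER-associated degradation, 1 rose and 3 fell in HaCaT (all genes, 15.5% and 15.9%) and 2 rose and 1 fell in TIGK at 24 h (all genes, 15.3% and 17%), so no share is far above that of all genes. The ATPase VCP, which pulls substrates out of the membrane, was 1.67-fold lower in HaCaT than in TIGK at 24 h (adjusted p = 1e-10). The ubiquitin conjugase UBE2J1 was 2.01-fold lower at 0 h (adjusted p = 1.1e-09), while HERPUD2 and SELENOS were 2.07-fold and 2.47-fold higher (adjusted p = 3.1e-10 and 1.3e-09). Of 20 genes of translocation into and export from the ER, 2 rose and 8 fell in HaCaT and 1 rose and 6 fell in TIGK at 24 h, beside the same shares. SSR1 and the signal peptidase subunit SPCS3 were 2.45-fold and 2.67-fold lower in HaCaT than in TIGK at 24 h (adjusted p = 1.4e-13 and 4.8e-13), the retrieval receptor KDELR3 was 3.4-fold lower at 0 h (adjusted p = 4.6e-11), and the coat protein SEC31A was 1.82-fold lower at 24 h (adjusted p = 9.7e-10).

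Of 16 further sensors, kinases and regulators, 2 rose and 2 fell in HaCaT at 24 h, near the shares of all genes (15.5% and 15.9%), and 6 rose and 2 fell in TIGK (all genes, 15.3% and 17%). EIF2AK2 (PKR), the eIF2 alpha kinase that reads double-stranded RNA and is induced by interferon, was at 81.1 ± 5.24 CPM at 24 h and 77.5 ± 4.67 at 0 h in HaCaT and at 365 ± 46.3 CPM at 24 h and 149 ± 16.7 at 0 h in TIGK. It rose 2.44-fold in TIGK (adjusted p = 3.7e-10), was not called in HaCaT (adjusted p = 0.68), and differed in response by log2 −1.22 ± 0.14 (SE, adjusted p = 9.4e-07). MBTPS1, the protease that cuts ATF6, was 1.94-fold lower in HaCaT than in TIGK at 24 h (adjusted p = 1.1e-11). The eIF2 alpha kinase EIF2AK1 and the exchange factor subunit EIF2B5 were 1.75-fold and 2.02-fold higher at 6 h (adjusted p = 1.5e-09 and 1.6e-10).

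Of 13 other ATF4-linked transcription factors and stress genes, 12 were tested (FGF21 was not), and at 24 h 9 rose and 1 fell in HaCaT (all genes, 15.5% and 15.9%) and 7 rose and 3 fell in TIGK (all genes, 15.3% and 17%). The response was called higher in HaCaT for 6 and lower for 1, beside 7.07% and 6.45% of all genes. ATF3 was at 18.3 ± 3.66 CPM at 24 h and 4.48 ± 0.512 at 0 h in HaCaT and at 10.2 ± 1.27 CPM at 24 h and 8.21 ± 0.249 at 0 h in TIGK, a 4.08-fold rise in HaCaT (adjusted p = 7.8e-10) and no call in TIGK (adjusted p = 0.13), with a difference of log2 1.71 ± 0.23 (SE, adjusted p = 8.3e-06). STC2 and VEGFA rose in HaCaT (1.66-fold and 1.53-fold, adjusted p = 7.6e-05 and 2e-06) and fell in TIGK (1.85-fold and 1.63-fold, adjusted p = 1.4e-06 and 3.7e-07). GDF15 was at 0.218 ± 0.0978 CPM in HaCaT and 12.04 ± 2.49 CPM in TIGK at 24 h (adjusted p = 1.3e-11).

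Of 12 further amino acid and one-carbon enzymes, 4 rose and 3 fell in HaCaT (all genes, 15.5% and 15.9%) and 1 rose and 5 fell in TIGK at 24 h (all genes, 15.3% and 17%). At 0 h 1 was higher and 9 were lower in HaCaT than in TIGK, beside 29.3% and 33.3% of all genes. GPT2 and PYCR1 were 2.62-fold and 3.104-fold lower in HaCaT at 0 h (adjusted p = 3.6e-13 and 1.7e-12), and in TIGK they fell 2.19-fold and 1.65-fold by 24 h (adjusted p = 2.3e-10 and 6.2e-06). ALDH1L2 and CBS were also lower in HaCaT, at 1.17 ± 0.51 and 3.27 ± 0.888 CPM in HaCaT and 31.1 ± 2.49 and 22.05 ± 1.93 CPM in TIGK at 0 h. Of 9 other amino acid transporters, 8 were tested, 3 rose and 1 fell in HaCaT, and 4 rose and 1 fell in TIGK, beside the same shares of all genes at 24 h. The neutral transporter SLC38A2 rose in both lines (1.52-fold and 1.67-fold, adjusted p = 1.6e-06 and 1.1e-07), as did the cystine transporter SLC7A11 (1.76-fold and 1.58-fold, adjusted p = 1.2e-05 and 5.8e-05). The glycine transporter SLC6A9 rose 1.58-fold in HaCaT and fell 1.28-fold in TIGK (adjusted p = 1.9e-05 and 0.018). SLC1A4 was 2.504-fold higher in HaCaT than in TIGK at 0 h (adjusted p = 1.5e-10). Of 13 genes of tRNA charging, 1 rose and 3 fell in HaCaT and 1 rose and 7 fell in TIGK at 24 h, again beside 15.5% and 15.9% of all genes in HaCaT and 15.3% and 17% in TIGK. NARS1 was 2.29-fold higher and TARS1 2.08-fold lower in HaCaT than in TIGK, at 24 h and at 6 h (adjusted p = 5.3e-13 and 4e-12), and CARS1 and YARS1 were 1.67-fold higher at 24 h and 1.49-fold lower at 6 h (adjusted p = 3.3e-08 and 2.3e-07).

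Reads of some members cannot be assigned with certainty. Besides ASNS and DDIT3, at least 20% of the exon bases are shared with a gene on the opposite strand for DDIT4 (41.2%, with DDIT4-AS1, which had 0 counts) and PDIA6 (25.2%, with ATP6V1C2, which had 819 counts against 68648). Pseudogene copies elsewhere in the genome can share reads with their gene: PDIA3P1 had 4.7% as many counts as PDIA3, ASNSP3 had 2.15% as many as ASNS, and the copies of ATF4, XBP1, PSAT1 and SLC7A5 had at most 0.145% as many as their gene.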

How the data were processed

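The 18 libraries fall into 6 groups of 3 by line and time, per the labels. Gene counts were deposited raw; per the submitters' processing notes featureCounts 1.5.0-p3, HISAT2 2.0.5 and StringTie 1.3.3b were used with hg38. Their roles, the annotation release and the use of strand are not given in the sources used here. The authors deposited FPKM values beside the counts, which were used for levels between genes and in 1 alternative.

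Counts were tested in R 4.3.3 with edgeR 4.0.16 (quasi-likelihood test, TMM scaling, filterByExpr by group, 6 group means fitted to all 18 libraries, 12 residual degrees of freedom). The filter kept 17409 of 58735 genes. Contrasts were HaCaT over TIGK at each time, 6 h and 24 h over 0 h in each line, and the difference of these responses (HaCaT minus TIGK). P-values were two-sided, adjusted by Benjamini-Hochberg over all genes tested, with calls under 0.05. The SE of a log2 fold change is its size over the square root of F. Log2 fold changes used a prior count of 0.125. The steps were tested on simulated counts. No 2 libraries of a group agreed within sampling noise.

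Library totals were 14238090 to 25011331 counts, so genes of low count such as ASNS, VLDLR and CHAC1 are the least precise.

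Alternatives were DESeq2 1.42.0, RLE scaling, no filter on low counts, a fit of only the groups compared, leaving out libraries, a replicate block by letter, and limma 3.58.1 on log2(FPKM + 1). The alternative without all 3 TIGK C libraries was added after seeing the data.

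In each arm and comparison, values in every library are given for up to 3 called genes of lowest adjusted p (or highest mean CPM where none was called) and for HSPA5, XBP1, ATF4 and DDIT3. ATF6, EIF2AK3, ERN1, MANF and SDF2L1 were added after their values were seen. From each further list up to 4 genes of lowest adjusted p are named. The 33 genes and all lists were chosen with earlier results of these data known. Promoter sequences came from RefSeq (GRCh38.p14).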

Additional observations from a re-analysis of the deposited data

Results flagged for a closer look

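For 9 of the 33 genes the change from 0 h to 24 h differed between HaCaT and TIGK, by edgeR's quasi-likelihood test of the difference itself, adjusted over all 17409 genes. Differences are log2 values, HaCaT response minus TIGK response. In the ER group PDIA4 gave −0.401433 (adjusted p = 0.003) and HSP90B1 gave −0.34451 (adjusted p = 0.02), so both responses were lower in HaCaT. CALR gave 0.298501 (adjusted p = 0.039), the other direction. In the ATF4 arm all 6 differences were positive. PPP1R15A gave 1.4205 (adjusted p = 5.6e-06) and DDIT4 gave 1.26948 (adjusted p = 6.6e-08). VLDLR gave 1.74158 (adjusted p = 0.025), at the lowest counts of the 9. SHMT2 gave 0.556117 (adjusted p = 0.0038), PSAT1 gave 0.482741 (adjusted p = 0.0016) and PHGDH gave 0.441382 (adjusted p = 0.018). PDIA4, PPP1R15A, DDIT4, SHMT2 and PSAT1 were called in every alternative tried.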

How the results depend on the processing

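Between edgeR and its alternatives, 104 calls of the 33 genes were followed through 26 alternatives each: 2597 values stayed called, 107 were no longer called and 0 changed sign. DESeq2, RLE scaling and the replicate block kept all 104, and 88 of the 107 losses came from leaving out 1 library. Such fits gave 1872 of the values, often with the library taken from a group outside the comparison, where the estimate can hardly move. Calls gained under the alternatives are not part of this tally.

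Counts over all genes moved most, in proportion to the fit reported, for the 6 h responses and their difference. Counts of called ER and ATF4-arm genes moved there by at most 1 gene. They moved by more for the 24 h response in HaCaT and the difference of the 24 h responses, given below. In HaCaT at 6 h, called ATF4-arm genes numbered 0, against 1 (PPP1R15A) with no filter and without all 3 TIGK C libraries. All called genes there numbered 35, against 107 by DESeq2, 130 with no filter, 200 with only the groups compared, 77 without the TIGK C libraries of 0 h and 6 h, 172 without all 3, and 4 to 47 without 1 library. In TIGK at 6 h, called ATF4-arm genes numbered 0, against 1 by DESeq2 (PSAT1) and 1 (SLC7A5) with no filter, without the TIGK C libraries of 0 h and 6 h and without all 3. Without 1 library they numbered 0 to 1, as did the ER genes, and all called genes numbered 350.0 to 817, against 630 in the fit reported and 359 with only the groups compared. The difference of the 6 h responses was called for 0 ATF4-arm genes, against 1 without all 3 TIGK C libraries, and for 131 of all genes, against 300 by DESeq2, 293 with no filter, 357 without all 3 TIGK C libraries and 68 to 260 without 1 library.

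At 24 h in HaCaT, 7 called ER genes became 11 with only the groups compared, 11 without all 3 TIGK C libraries and 3 to 9 without 1 library, and 11 called ATF4-arm genes became 7 to 11 without 1 library. All called genes there numbered 5471, against 4575 to 5713 without 1 library and 5164 to 6360 in the other alternatives. The difference of the 24 h responses was called for 3 ER genes, for 6 without the TIGK C libraries of 0 h and 6 h, for 5 without all 3, and for 2 to 4 without 1 library. For 6 ATF4-arm genes it became 4 to 7. Over all genes that difference was called for 2354, against 1898 to 2514 without 1 library and 2215 to 2750 in the other alternatives. The cause of these shifts was not tested.

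The labels do not say that the letters A to C pair the libraries. Same-letter libraries of 1 line had correlations of −0.025 to 0.388 in their deviations from the group means (median 0.0095 over 18 pairs), against −0.199 to 0.089 for unlike letters. TIGK at 0 h and 6 h gave 0.105, 0.094 and 0.388 for A, B and C, and no other same-letter pair within a line passed 0.027. With the letter as a replicate block, all called genes numbered 70 in HaCaT at 6 h and 212 for the difference of the 6 h responses, and 7 calls were added among the 33 genes: MANF at 24 h in HaCaT (adjusted p = 0.012) and TIGK (0.01) and between the lines at 6 h (0.021), PDIA3 between the lines at 0 h (0.048) and 24 h (0.047), SLC7A5 in TIGK at 24 h (0.019), and the difference of the HSPA5 responses at 24 h (0.026). No scaling moved the median of all genes by more than 0.021 (log2).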
